A study of Mus musculus with 3 samples.

Results

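Cycling macrophages is the name used here for cells of the mouse sciatic nerve macrophage libraries that were selected on the messenger RNA of 13 genes of late cell division: Mki67, Top2a, Birc5, Ccnb2, Cdk1, Ube2c, Cenpf, Tpx2, Nusap1, Prc1, Cdca8, Cdca3 and Hmmr. A cell was a member when it had 3 or more UMIs summed over these genes. A UMI, or unique molecular identifier, is a tag that counts each captured RNA molecule once. Of 5580 cells, 92 were members. They came from 3 droplet libraries of sciatic nerve macrophages of C57BL/6 mice. The steady-state library, from nerve without a stated injury, gave 16 members of 728 cells. The library made 1 day after nerve crush gave 17 of 2793, and the one made 5 days after crush gave 59 of 2059. Each condition was 1 library, so a condition and its library cannot be told apart, and nothing here was tested against a spread between replicates.

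Tissue macrophages renew by dividing in place and by recruitment of blood monocytes that mature after entry. Division is driven through the receptor of colony-stimulating factor 1, encoded by Csf1r. DNA replication enzymes are made first, in S phase, and the kinases, kinesins and spindle proteins of mitosis later, under repressor and activator complexes that bind cell cycle homology and CCAAT elements in their promoters.

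The promoters of the selecting genes are shown because these genes define the cells. RefSeq (GRCm38.p6) had a promoter entry, from 250 bases before to 50 bases after the gene start, for 12 of the 13 genes, and Tpx2 had none. The hexamer TTTGAA, the form of the cell cycle homology element searched here on both strands, was in 10 of the 12 windows, against 17.9% of all 32851 mouse promoter windows. The pentamer CCAAT, also searched on both strands, was in the same 10, against 37.4% of all windows. Birc5 and Nusap1 held neither set of letters in this window, and the variant TTCGAA was in Top2a, against 1.56% of all windows. In 5 genes TTTGAA lay within 100 bases before the start, against 5.77% of all windows. For those 5 the stretch that ends with that match is printed below, 5′ to 3′ on the gene's own strand, with every match to the hexamer, the pentamer or their reverse complements in capitals. A match is a string of letters and not a measured binding site. They lie at chr7:135716472-135716571 (Mki67, minus strand), chr11:99024207-99024306 (Top2a, minus), chr10:69352922-69353021 (Cdk1, minus), chr2:164769806-164769905 (Ube2c, plus) and chr7:80294352-80294451 (Prc1, plus).
Mki67: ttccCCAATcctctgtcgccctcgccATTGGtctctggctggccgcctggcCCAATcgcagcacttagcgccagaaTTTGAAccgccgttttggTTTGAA
Top2a: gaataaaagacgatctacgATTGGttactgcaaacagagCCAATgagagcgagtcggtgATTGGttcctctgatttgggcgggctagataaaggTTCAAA
Cdk1: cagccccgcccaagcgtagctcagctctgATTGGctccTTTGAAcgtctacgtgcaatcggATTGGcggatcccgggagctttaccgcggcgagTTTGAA
Ube2c: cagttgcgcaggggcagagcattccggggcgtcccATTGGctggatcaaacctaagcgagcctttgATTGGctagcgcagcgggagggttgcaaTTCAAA
Prc1: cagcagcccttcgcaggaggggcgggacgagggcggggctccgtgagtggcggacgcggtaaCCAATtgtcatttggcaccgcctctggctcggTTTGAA
Mki67 and Top2a each held 3 CCAAT matches in this stretch, Cdk1 and Ube2c 2, and Prc1 1.

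Each member was set beside 3 cells of the same library that had 0 UMIs of the 13 genes and a UMI count outside these genes within 2-fold of its own. These matched cells numbered 48, 51 and 177 in steady state, day 1 and day 5. UMIs were summed over the members and over the matched cells of a library and are given as CPM, a gene's UMIs per 1000000 UMIs of the class. Levels of a class are given as CPM, and differences as the ratio of members to matched cells or its log2. Ratios carry exact conditional binomial 95% intervals and shares of cells carry Clopper-Pearson 95% intervals. Both cover counting error only, and cells of 1 library are not replicates. The members held 59907, 63184 and 234216 UMIs, so 1 UMI is 16.7, 15.8 and 4.27 CPM in the members of the 3 libraries. The median UMIs per cell were 3723, 3594 and 3620 in members and 3671, 3562 and 3616 in matched cells, against 2226, 2526.5 and 2396 in all cells with 0 UMIs of the 13 genes.

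The values that selected the members are a description. The members had a median of 9 UMIs of the 13 genes in steady state, 4 on day 1 and 9 on day 5, with maxima of 38, 31 and 53. Just inside the threshold, at 3 UMIs, were 3, 2 and 12 cells, and just outside it, at 2 UMIs, were 5, 18 and 33. Birc5, which encodes the chromosomal passenger protein survivin, had the most UMIs in each library, level with Cdca8 on day 1: 37 in 12 cells, 23 in 9 cells and 146 in 44 cells. Mki67, the source of the proliferation antigen Ki-67, had 14 UMIs in 6 cells, 13 in 5 and 65 in 31. Top2a, the topoisomerase that untangles replicated chromosomes, had 16 UMIs in 6 cells, 20 in 7 and 54 in 20. Ube2c, which passes ubiquitin to mitotic cyclins through the anaphase-promoting complex, had 12 UMIs in 5 cells, 9 in 4 and 120 in 28. Single cells supplied much of some genes. In steady state 24 of 28 Hmmr UMIs and 16 of 17 Cenpf UMIs came from 1 cell each, and on day 1 the 6 UMIs of Ccnb2 came from 1 cell and Hmmr was at 0.

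**Figure D1:**
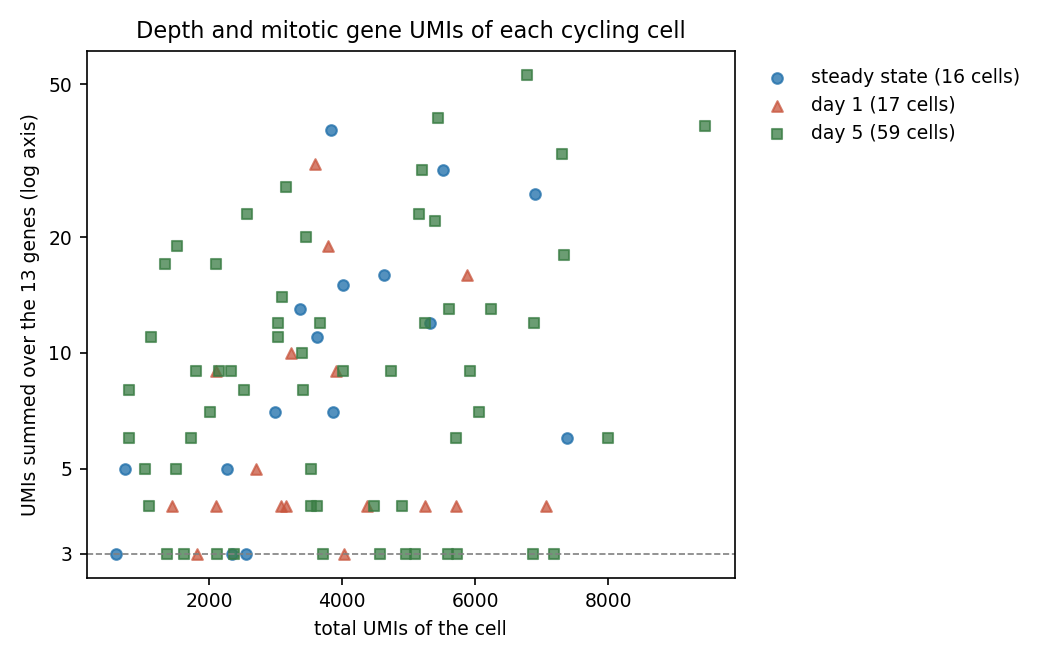
Total UMIs of a cell (horizontal axis) against its UMIs summed over the 13 selecting genes (vertical log axis), 1 point per member, with the threshold of 3 UMIs as a dashed line. Day 1 members lie mostly at 3 to 5 UMIs, with 4 of 17 at 10 or more, against 8 of 16 in steady state and 24 of 59 on day 5.

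The share of cells that met the rule was 2.20% in steady state (95% interval 1.26 to 3.54), 0.609% on day 1 (0.355 to 0.973) and 2.87% on day 5 (2.19 to 3.68). In steady state 4 of 18 cells with 5000 or more UMIs were members, on day 1 4 of 310 and on day 5 21 of 164, each a higher share than over all cells of the library. After each cell was thinned to 1000 UMIs, which left out 90, 297 and 282 shallower cells, the shares were 0.940% (0.346 to 2.04), 0.240% (0.0883 to 0.522) and 1.41% (0.912 to 2.07). The day 1 share was the lowest with and without thinning. The thinned intervals of steady state and day 1 overlap, and those of day 1 and day 5 do not.

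Most of the replication and chromatin genes outside the rule that could be compared were higher in the members of each library. Most compared mitosis genes were higher in steady state and on day 5. The same cells and counts chose the members, so this is a description with no test. With at least 100 CPM in either class, 1948, 1821 and 1605 genes could be compared. In steady state 28.0% of these were at least 2-fold higher in members and 14.6% at least 2-fold lower; on day 1 the shares were 16.5% and 13.3%, and on day 5 9.84% and 3.12%. The median log2 ratio over all compared genes was 0.28, 0.04 and 0.08. A median-of-ratios scaling lowered it by 0.48 in steady state, 0.19 on day 1 and 0.21 on day 5, and the shares higher and lower in steady state became 17.8% and 22.1%. With a minimum of 50 CPM the median was 0.34, 0.06 and 0.12, and with 200 CPM 0.12, 0.03 and 0.05. Members held fewer UMIs than matched cells (59907 against 170677 in steady state), so the CPM limit admits a gene on fewer UMIs in members. Of 12 replication genes compared in steady state all 12 were at least 2-fold higher, as were 10 of 10 on day 1 and 10 of 10 on day 5. Of the mitosis genes outside the rule 22 of 23 were higher in steady state, 2 of 4 on day 1 (1 lower) and 8 of 10 on day 5. A gene low in matched cells could be compared only when it was high in members, so these counts favour higher genes. Summed over all 50 replication genes, without that limit, members held 3305, 2548 and 3279 CPM and matched cells 656, 793 and 662. Over all 60 mitosis genes outside the rule the sums were 7996, 2199.9 and 4808 CPM against 797, 608 and 753. At least 3 UMIs of these mitosis genes were found in 15 of 16, 10 of 17 and 52 of 59 members and in 20 of 48, 22 of 51 and 78 of 177 matched cells. On day 1 3 members had 0 UMIs of them, and 4 of 17 members held under 3 UMIs of both the replication and the mitosis genes. Chromatin and tubulin genes were higher for 20 of 24, 16 of 25 and 21 of 24.

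Stmn1, which encodes the microtubule destabilizer stathmin, had 152, 79 and 379 UMIs in the members, or 2537, 1250.3 and 1618 CPM. It was at 93.7, 52.9 and 34.4 CPM in the matched cells. The ratio was 27.1 (16.1 to 48.6) in steady state, 23.6 (12.2 to 51.2) on day 1 and 47.1 (31.2 to 74.4) on day 5. Stmn1 UMIs were found in 15 of 16, 11 of 17 and 49 of 59 members against 4 of 48, 5 of 51 and 16 of 177 matched cells. After thinning to 1000 UMIs, which left out 2, 0 and 2 members and 6, 0 and 6 matched cells, these were 10 of 14, 7 of 17 and 39 of 57 against 3 of 42, 3 of 51 and 4 of 171. Hmgb2, a chromatin protein of dividing cells, was 11.4-fold higher in steady state (7.22 to 18.6), 4.95-fold on day 1 (2.97 to 8.39) and 5.79-fold on day 5 (4.71 to 7.15). H2afz, a histone H2A variant found in most cells, differed less: it was at 4273, 1741 and 3270.5 CPM in members and 738, 613 and 1060 CPM in matched cells.

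Replication genes varied between members. Tk1, the thymidine kinase of S phase, had 13 UMIs in 5 steady-state members, 3 UMIs in 2 day 1 members and 87 UMIs in 27 day 5 members, against 3, 0 and 1 UMIs in the matched cells. On day 5 1 cell held 28 of the 87. Hist1h1b, a linker histone made with new DNA, had 85 UMIs in 12 day 5 members and 0 in their matched cells, at least 84.4-fold higher when the 0 is set to 3 UMIs over the class. Pcna, the sliding clamp of DNA polymerase, was 3.37-fold higher in steady state (1.39 to 8.30), 4.70-fold on day 1 (1.67 to 14.3) and 3.35-fold on day 5 (2.14 to 5.27). At least 3 UMIs of replication genes were found in 13 of 16, 10 of 17 and 40 of 59 members. They were also found in 14 of 48, 15 of 51 and 55 of 177 matched cells, so the matched cells, chosen for 0 UMIs of the late genes, are not free of replication genes. Among entry and brake genes 3 of 9 were higher in steady state and 2 lower, 1 of 6 higher on day 1 and 2 of 5 higher on day 5. Cdkn2c, an inhibitor of the G1 kinases, had 8, 2 and 22 UMIs in members against 1, 2 and 7 in matched cells. Cdkn1a, the inhibitor p21, was at 918, 681 and 487 CPM in members and 475, 460 and 407 CPM in matched cells, under 2-fold higher in each library.

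The members were described by 24 macrophage core genes. Every member and every matched cell held 3 or more UMIs of these genes, with lows of 8, 37 and 6 UMIs and medians of 113, 141 and 157 UMIs per member. This count does not set macrophages apart from other cells. Steady-state members with dendritic cell genes, described further on, held 8, 61, 65 and 64 UMIs of the core genes. A day 5 member with T cell genes held 16. The summed level of the 24 genes was 36006, 38158 and 47115 CPM in members and 61192, 45060 and 63103 CPM in matched cells. No core gene was at least 2-fold higher in any library, and 3 of 22, 2 of 23 and 0 of 23 were at least 2-fold lower. The median log2 ratio was −0.61, −0.15 and −0.41, below that of all genes each time.

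Csf1r, the growth factor receptor named above, was at 484 CPM in steady-state members, 189.9 on day 1 and 354 on day 5. Matched cells had 492, 206 and 469.8 CPM. Of the members 12 of 16, 8 of 17 and 40 of 59 had a Csf1r UMI, against 36 of 48, 23 of 51 and 125 of 177 matched cells. The ratio excluded 1 on day 5 alone, where Csf1r was 1.33-fold lower (1.04 to 1.71). Adgre1, the F4/80 antigen, had 11, 14 and 32 UMIs in members, and it was 1.73-fold lower on day 5 (1.18 to 2.61) with intervals that included 1 in the other libraries. Lyz2, the lysozyme of myeloid cells, was lower by 1.95-fold (1.80 to 2.12), 1.80-fold (1.65 to 1.96) and 1.67-fold (1.61 to 1.73), at 11618, 10082 and 15631 CPM in members. Apoe, a lipid carrier that macrophages secrete, was at 20148, 6916 and 33764 CPM in members and 31574, 8561 and 51887 CPM in matched cells. In steady state 4 of 16 members held dendritic cell genes, described further on, against 4 of 48 matched cells. These members had 733, 4016, 6892 and 7385 total UMIs and no Csf1r UMI. They held 3, 30, 18 and 25 Lyz2 UMIs and 0, 7, 9 and 2 Apoe UMIs. These cells lower the steady-state member levels of Csf1r, Lyz2 and Apoe, which were not recalculated without them. Fcgr1, the high-affinity Fc receptor, had 3 UMIs in steady-state members, 15 on day 1 and 49 on day 5, and was 4.09-fold (1.29 to 20.8), 1.80-fold (1.03 to 3.37) and 1.57-fold (1.15 to 2.19) lower. Growth factor receptors and lineage factors were higher for 3 of 17, 2 of 13 and 0 of 14 and lower for 1 in each library. Over all compared genes 28.0%, 16.5% and 9.84% were higher and 14.6%, 13.3% and 3.12% lower. These shares stand beside the counts of every list. Itgam, the CD11b integrin, had 3 UMIs in day 1 members and 45 in their matched cells, 5.01-fold lower (1.61 to 25.2). The steady-state log2 ratio of Fcgr1 was −0.30 when cells with 3 or more UMIs of another cell type's genes were left out of both classes, against −2.03 with them.

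The complement genes C1qa, C1qb and C1qc, whose products opsonize debris and which mature tissue macrophages transcribe, were higher in members than in matched cells on day 1 and lower in steady state. On day 1 all 17 members held 3 or more C1q UMIs (lower limit 80.5%), with a low of 3, a median of 37 and a high of 117. Of the 51 matched cells 34 did (66.7%, 52.1 to 79.2), with a median of 12. In steady state 14 of 16 members did with a median of 40.5 UMIs, against 44 of 48 matched cells with a median of 77.5. On day 5 57 of 59 members did with a median of 47, against 162 of 177 matched cells with a median of 43. C1qb was at 5128 CPM in day 1 members and 2723 CPM in matched cells, 1.88-fold higher (1.63 to 2.17), and 2.0-fold lower in steady-state members (1.73 to 2.33). Whether this difference between libraries exceeds the spread between animals was not tested. Steady-state cells with dendritic cell genes, which are described further on, held up to 4 C1q UMIs, and 3 or 4 C1q UMIs thus also occur in such cells. These 4 members lower the steady-state C1q level, and the ratio was not recalculated without them alone. Over the alternative settings the steady-state log2 ratio of C1qb lay between −1.26 and −0.84. Over all complement genes 3 of 8 were lower in steady state, 1 of 7 on day 1 and 0 of 7 on day 5, and none was higher.

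**Figure D2:**
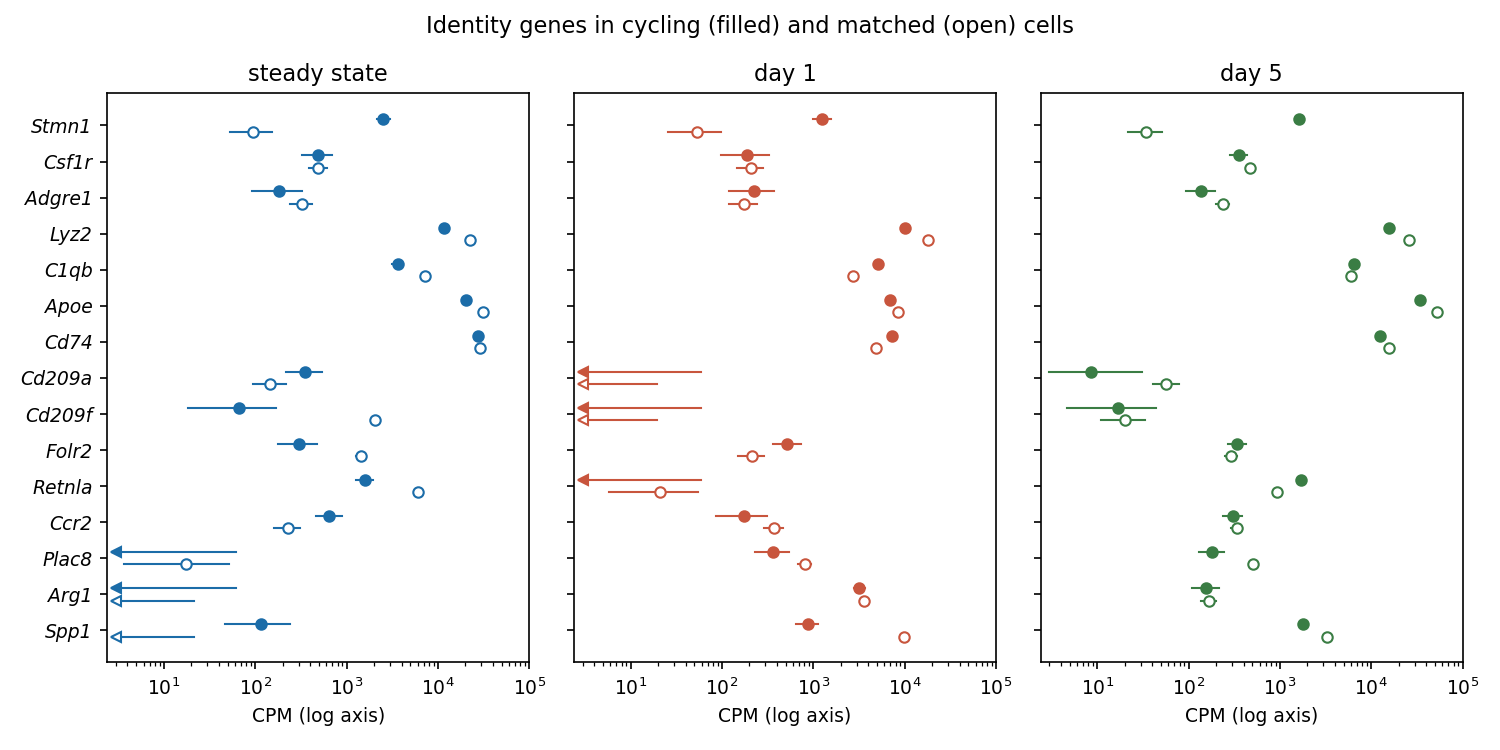
CPM of 15 genes (horizontal log axis) in members (filled) and matched cells (open) of each library, with exact Poisson 95% intervals; a left-pointing triangle stands for 0 UMIs, drawn at the axis edge. Stmn1 is far to the right in members of all 3 libraries, Csf1r and Cd74 lie close together, Cd209f and Folr2 are apart in steady state and Spp1 on day 1.

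The list of epineurial genes holds lectins, scavenger receptors and other genes of macrophages in the outer sheath of the nerve. In steady-state members 10 of 17 of these genes were at least 2-fold lower and 1 higher, with a median log2 ratio of −1.30. On day 1 7 of 9 were higher and 0 lower, with a median of 1.42, and on day 5 1 of 8 was higher with a median of 0.50 (−0.07 to 0.73 over the alternative settings). Over the same settings the median lay between −1.88 and −0.97 in steady state and between 1.07 and 2.16 on day 1. The day 1 count favours higher genes, because a gene low in matched cells could be compared only when it was high in members. Over all 20 epineurial genes the members held 5709, 3941 and 4389 CPM, and the matched cells 15714, 2099 and 3464 CPM. On day 1 7 of the 20 genes were at 0 in members. Cd209f, a C-type lectin, had 4 UMIs in 2 of 16 steady-state members and 348 UMIs in 15 of 48 matched cells, 30.5-fold lower (11.8 to 113). After thinning Cd209f was found in 1 of 14 members and 12 of 42 matched cells. Of the members 2 of 16 held 3 or more UMIs of the 4 Cd209 lectins and the ficolin gene Fcna together, against 17 of 48 matched cells. The log2 ratio of Cd209f was −4.93, and −2.96 without cells that held genes of other cell types. Cd209f was at 0 in both classes on day 1 and had 4 and 14 UMIs on day 5. On day 1 1 of 17 members and 1 of 51 matched cells held 3 or more UMIs of the 4 lectins and Fcna.

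Folr2, a folate receptor, was at 300.5 CPM in steady-state members and 1441 CPM in matched cells, 4.80-fold lower (2.97 to 8.23). On day 1 it was at 522 and 212 CPM, 2.47-fold higher (1.51 to 4.02), and on day 5 at 342 and 292 CPM, with an interval that included 1 (0.891 to 1.52). Cbr2, a carbonyl reductase, had the same order: 2.46-fold lower (1.45 to 4.45), 2.68-fold higher (1.52 to 4.72) and 2.0-fold higher (1.44 to 2.76). Mgl2, a galactose-binding lectin, had 27 UMIs in 5 of 17 day 1 members and 3 UMIs in 2 of 51 matched cells, 26.9-fold higher (8.29 to 139). In steady state Mgl2 was 1.25-fold higher with an interval from 0.986 to 1.57. Lyve1, a hyaluronan receptor, had 19 UMIs in 7 day 1 members and 8 UMIs in 2 matched cells, and 3 UMIs against 27 in steady state. Ccl8, a chemokine, had 51 UMIs in day 1 members, 37 of them in 1 cell.

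Retnla, a secreted resistin-like protein of alternatively activated macrophages, was spread unevenly over the members. In steady state 8 of 16 members had a Retnla UMI, with a high of 50 UMIs, against 35 of 48 matched cells, and its level was 3.84-fold lower (3.11 to 4.79). After thinning these were 4 of 14 and 19 of 42. On day 1 none of the 17 members and 1 of 51 matched cells had it, and 0 of 17 has an upper limit of 19.5%. On day 5 20 of 59 members and 66 of 177 matched cells had it, and the highest members held 105 and 110 UMIs of the 401 in all. The day 5 level was 1712 CPM against 934 CPM, but the log2 ratio of 0.87 was 0.02 for members with 5 or more UMIs of the 13 genes and −0.01 as a mean of per-cell CPM, so no direction is given.

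**Figure D3:**
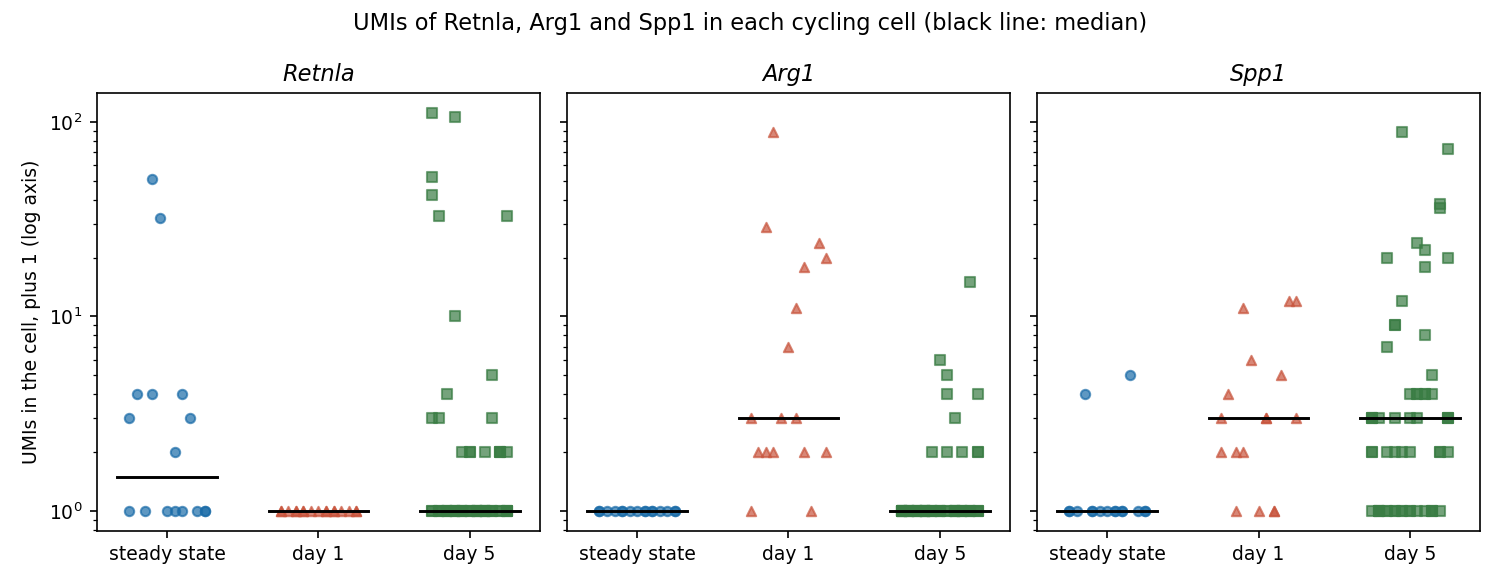
UMIs of Retnla, Arg1 and Spp1 plus 1 (vertical log axis) in each member of the 3 libraries, 1 point per cell, with the median as a black line. Retnla is at 0 in all day 1 members and reaches 110 on day 5, Arg1 is at 0 in all steady-state members and reaches 88 on day 1, and Spp1 reaches 11 on day 1 and 88 on day 5.

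Endoneurial genes, those of macrophages inside the nerve bundles, gave 1 of 7 higher (Ccr2) and 1 lower (Gpr34) in steady state, 2 of 4 higher (Ccl12 and Hpgd) and 1 lower (Ccr2) on day 1, and 0 of 6 either way on day 5. Over the alternative settings the log2 ratio of Gpr34 in steady state lay between −2.67 and −0.04, that of Ccl12 on day 1 between −0.14 and 1.46 and that of Ccr2 on day 1 between −1.69 and −0.82. Ccr2 is also a monocyte gene and is described with those. Cx3cr1, the fractalkine receptor, had 4, 3 and 51 UMIs in members. On day 5 it was at 218 CPM in members and 165 CPM in matched cells, with a ratio of 1.32 (0.931 to 1.85), and 24 of 59 members had a UMI. Trem2, a lipid-sensing receptor, was at 367, 475 and 884 CPM in members and 422, 656 and 1040 CPM in matched cells, within 2-fold in each library. Microglia-associated genes were lower for 2 of 8, 1 of 6 and 0 of 7, and none was higher.

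All 6 class II antigen presentation genes compared were within 2-fold in each library, with median log2 ratios of −0.12, 0.36 and −0.09. Cd74, the invariant chain that loads class II molecules, was at 27292 CPM in steady-state members and 29143 in matched cells. The median there was 50.5 Cd74 UMIs per member and 102 per matched cell. Steady-state members with dendritic cell genes, described below, held 10, 142, 409 and 312 Cd74 UMIs, a large part of the members' sum. On day 5 it was at 12574 and 15492 CPM. Of the members 15 of 16, 12 of 17 and 47 of 59 held 3 or more Cd74 UMIs, against 41 of 48, 18 of 51 and 136 of 177 matched cells. On day 1 the deepest member held 246 of the 459 Cd74 UMIs. The day 1 log2 ratio of Cd74 was 0.58 with that cell and −0.53 without it, and the class II median was −0.58 without it.

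Some members carried genes of dendritic cells, antigen-presenting cells that share class II genes with macrophages. Counted over Ccl17, Ccl22, Ccr7, Flt3, Zbtb46, Xcr1, Clec9a, Fscn1 and Cd209a, 4 of 16 steady-state members held 3 or more UMIs, against 4 of 48 matched cells. On day 1 0 of 17 and 1 of 51 did, and on day 5 3 of 59 and 3 of 177. These 9 genes are part of a list of 24 dendritic cell genes, chosen with values known. Over the 24 genes 10 of 16 steady-state members and 35 of 48 matched cells held 3 or more UMIs, and the summed level was 1.35-fold lower in members (1.15 to 1.59). Of the 725 UMIs of the 24 genes in the matched cells 295 lay in 1 cell, against at most 52 of 189 in 1 member. The sum was not repeated without that matched cell. Of the 10 genes of that list compared in steady state 5 were higher and 3 lower. The 4 steady-state members had 733, 4016, 6892 and 7385 total UMIs, no Csf1r UMI and 0, 4, 0 and 4 C1q UMIs. All 12 other steady-state members had 16 or more C1q UMIs and at least 1 Csf1r UMI. The cell with 6892 UMIs held 9 Cd209a, 3 Flt3, 11 Napsa and 409 Cd74 UMIs, where Flt3 is a growth factor receptor of dendritic cells and their precursors. The cell with 7385 UMIs held 35 Ccl17 UMIs, all that the steady-state members had of this chemokine, and 312 Cd74 UMIs. Under the name of macrophages the steady-state members therefore include 4 cells that carry the selecting genes with dendritic cell genes and few or no C1q UMIs.

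On day 5 the cells with 5918 and 7991 UMIs held 3 and 9 Ccl17 UMIs with 7 and 24 C1q UMIs. The other day 5 cell past 3 UMIs of these genes, with 1126 UMIs, also held 4 UMIs of Dcn and 8 UMIs of fibroblast genes, and 1 C1q UMI. A further day 5 member with 5398 UMIs held 21 UMIs of T cell genes, 5 of them of Cd3g, and 1 C1q UMI, and no other member had any UMI of the 10 T cell genes. Summed over the members of a library, neutrophil genes had 2, 4 and 2 UMIs, mast cell and basophil genes 0, 0 and 1, endothelial genes 3, 0 and 5, fibroblast genes 13, 7 and 43, Schwann cell genes 13, 13 and 17, and B cell genes 6, 0 and 5. No member held more than 4 UMIs of Schwann cell genes. In the matched cells the sums were 14, 28 and 26 for neutrophil genes, 0 in each library for mast cell and basophil genes, 4, 6 and 18 for endothelial genes and 19, 55 and 151 for fibroblast genes. For Schwann cell genes they were 42, 9 and 43, and for B cell genes 7, 1 and 17. Per UMI of the class, Schwann cell genes were 4.32-fold higher in day 1 members (1.71 to 11.5) and fibroblast genes 2.62-fold lower (1.19 to 6.83), and the part of either in the day 1 differences was not tested. Of the 11 Schwann cell genes 9 were at 0 in day 1 members, and only 1, Pmp22, could be compared. No day 1 member held 3 or more UMIs of Schwann cell genes. When cells with 3 or more UMIs of another cell type's genes were left out of both classes, 8 members and 24 matched cells remained in steady state. Besides the members with dendritic cell genes this left out those with 3832, 3854, 4624 and 5324 UMIs. These held 82, 96, 76 and 134 C1q UMIs, and 3 or 4 UMIs of fibroblast, B cell or Schwann cell genes. This setting thus also removes members with many C1q UMIs. The steady-state median log2 ratio of mitosis genes was 1.78 without all the cells left out, against 3.32 with them, and that of class II genes −0.69, against −0.12. Among single genes the log2 ratio of Ccr2 was 3.9 without them and 1.51 with them.

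**Figure D4:**
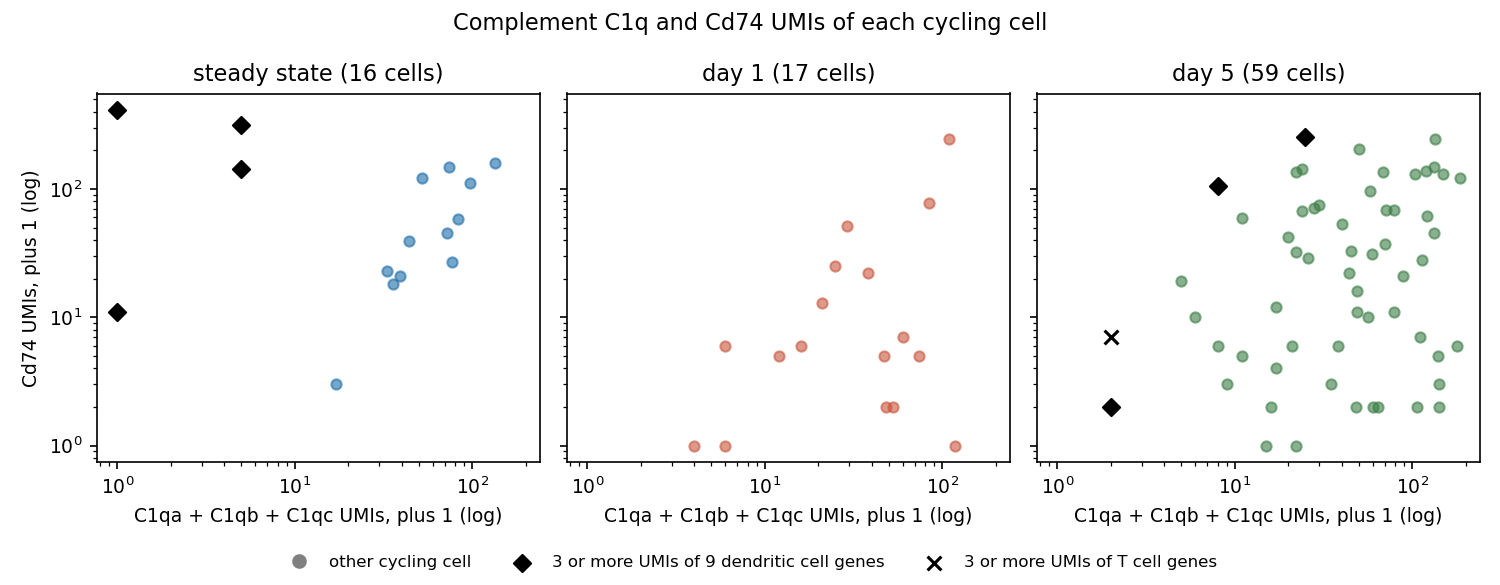
C1qa, C1qb and C1qc UMIs plus 1 (horizontal log axis) against Cd74 UMIs plus 1 (vertical log axis) in each member, with cells that hold 3 or more UMIs of the 9 dendritic cell genes as diamonds and the cell with T cell genes as a cross. In steady state the 4 diamonds lie at 0 to 4 C1q UMIs, apart from the other 12 members, and on day 1 there is no diamond.

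Monocyte and granule genes, which mark cells newly arrived from blood, were lower in day 1 members for 10 of 16 genes and higher for 0, with a median log2 ratio of −1.15 and a range of −1.30 to −0.82 over the alternative settings. In steady state 6 of 11 were lower and 2 higher, but the median there was −0.01 without cells that held genes of other cell types. On day 5 3 of 15 were lower and 0 higher. Ly6c2, the Ly6C antigen of classical monocytes, had no UMI in the 17 day 1 members and 27 UMIs in 9 of 51 matched cells, at least 3.01-fold lower when the 0 is set to 3 UMIs over the class. On day 5 it had 12 UMIs in 4 members, 9 of them in 1 cell, and 116 UMIs in 19 matched cells, 3.24-fold lower (1.79 to 6.46). Chil3, a chitinase-like protein, had 2 UMIs in day 1 members and 81 UMIs in 25 matched cells, 13.5-fold lower (3.63 to 114). Plac8, a small cysteine-rich protein of monocytes, was at 364 CPM in day 1 members and 809 CPM in matched cells, and at 179 and 509 CPM on day 5, 2.84-fold lower (2.06 to 4.00). After thinning Plac8 was found in 2 of 17 day 1 members and 24 of 51 matched cells. Hp, haptoglobin, was 3.34-fold lower on day 1 (1.21 to 12.9) and 6.17-fold lower on day 5 (2.55 to 19.5). The day 1 log2 ratio of Hp was −1.74 and lay between −2.42 and −0.42 over the alternative settings.

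Ccr2, the chemokine receptor that brings monocytes out of the marrow, was at 174 CPM in day 1 members and 370.1 CPM in matched cells, 2.13-fold lower (1.12 to 4.45). In steady state it was 2.85-fold higher (1.78 to 4.56), but 23 of the 39 UMIs lay in 1 cell with 38 UMIs of the 13 genes. On day 5 it was at 303 and 337 CPM, and 30 of 59 members had a UMI. On both days after crush Ly6c2, Plac8 and Hp were lower in members, while the day 5 ratio of Ccr2 had an interval that included 1 (1.11-fold lower, 0.848 to 1.47).

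The wound repair list gave 1 of 9 genes higher and 2 lower in steady state and 2 of 18 higher and 7 lower on day 1. On day 5 it gave 0 of 15 higher and 2 lower. The median log2 ratios were 0.32, −0.44 and −0.26. Of all compared genes 28.0%, 16.5% and 9.84% were higher and 14.6%, 13.3% and 3.12% lower. Arg1, the arginase of wound macrophages, was at 0 in both classes of steady state. On day 1 15 of 17 members had it, with a median of 2 and a high of 88 UMIs, and 43 of 51 matched cells did. The day 1 levels were 3197 and 3606 CPM, a ratio with an interval that included 1 (1.13-fold lower, 0.963 to 1.33). The member with 88 Arg1 UMIs had 4 UMIs of the 13 genes and 0 UMIs of the other mitosis genes. For the 7 day 1 members with 5 or more UMIs of the 13 genes the log2 ratio was −1.79. On day 5 Arg1 was at 154 and 166 CPM, in 11 of 59 members and 41 of 177 matched cells.

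Spp1, which encodes the matrix protein osteopontin, differed most on day 1. The 17 members had 0 to 11 UMIs each with a median of 2, 55 in all (870.5 CPM). The 51 matched cells had a median of 6 and a high of 436 in 1 cell, 1888 in all (9983 CPM), so Spp1 was 11.5-fold lower in members (8.77 to 15.3). The log2 ratio was −3.52 and lay between −4.26 and −2.63 over the alternative settings. It was −2.63 when both classes were limited to cells with 3 or more C1q UMIs. The gene was found in 13 of 17 members and 45 of 51 matched cells, and after thinning in 9 of 17 and 33 of 51. On day 5 Spp1 was at 1802 and 3303 CPM, 1.83-fold lower (1.65 to 2.04). In steady state 2 members held 4 and 3 UMIs and no matched cell had any. Fn1, fibronectin, was 2.56-fold lower in day 1 members (1.69 to 4.01) and 1.56-fold lower on day 5 (1.23 to 2.01). Thbs1, the matrix protein thrombospondin 1, was at 107 CPM in day 5 members and 349.5 CPM in matched cells, 3.27-fold lower (2.17 to 5.16).

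On day 1 inflammatory genes were higher for 5 of 14 and lower for 3, with a median log2 ratio of 0.82, and immediate early and heat shock genes were higher for 6 of 23 and lower for 0, with a median of 0.59. Egr1, an immediate early transcription factor, had 85 UMIs in 8 of 17 day 1 members, 44 of them in 1 cell, and 13 UMIs in 7 of 51 matched cells, 19.6-fold higher (10.9 to 38.3). Its log2 ratio on day 1 was between 3.68 and 4.82 over the alternative settings. Cxcl1, a neutrophil attractant, had 42 UMIs in 5 members and 8 UMIs in 5 matched cells, 15.7-fold higher (7.29 to 38.8). Klf2, a transcription factor that restrains activation, was at 2532 and 656 CPM, 3.86-fold higher (3.04 to 4.92). Ccl3, a chemokine, was at 2232 and 703 CPM, 3.17-fold higher (2.49 to 4.05). Il1b, the cytokine interleukin 1 beta, did not share this direction and was 1.55-fold lower on day 1 (1.09 to 2.25). In steady state and on day 5 the ratio of Egr1 had an interval that included 1 (0.878 to 1.63 and 0.981 to 1.69), and 0 of 16 and 0 of 12 inflammatory genes were higher, while 6 of 16 were lower in steady state and 0 of 12 on day 5.

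Lipid and lysosome genes gave 2 of 21 higher and 2 lower in steady state, 1 of 22 higher and 4 lower on day 1, and 0 of 23 higher and 1 lower on day 5, with medians of −0.35, −0.39 and −0.49. Gpnmb, a lysosomal glycoprotein of lipid-laden macrophages, was the day 5 gene, at 55.5 CPM in members and 138 CPM in matched cells, 2.48-fold lower (1.38 to 4.82), with a log2 ratio between −2.09 and −0.80 over the alternative settings. Interferon response genes were lower for 3 of 4 in steady state. Ifit3 had 0 UMIs there against 40 in 4 of 48 matched cells. The median log2 ratio of this list moved from −1.80 to −0.32 when cells with genes of other cell types were left out. Glycolysis and hypoxia genes were higher for 1 of 9, 1 of 15 and 0 of 10 and lower for 0, 4 and 1. Genes of oxidative phosphorylation were within 2-fold for 23 of 27, 24 of 28 and 28 of 28. Of all compared genes 28.0%, 16.5% and 9.84% were higher in the 3 libraries and 14.6%, 13.3% and 3.12% lower.

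**Figure D5:**
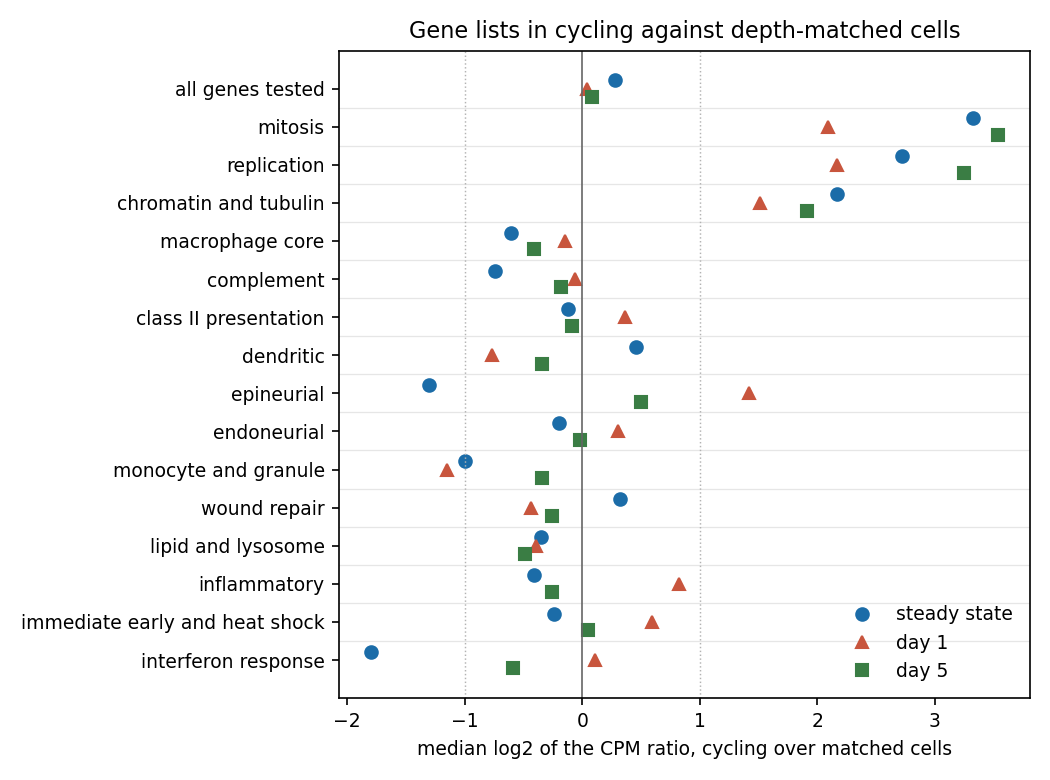
Median log2 ratio of members over matched cells for gene lists (rows) in the 3 libraries (symbols), with all compared genes in the top row and dotted lines at 2-fold. Mitosis, replication and chromatin genes lie to the right in each library, and epineurial genes lie left of −1 in steady state and right of 1 on day 1. Only genes with at least 100 CPM in either class enter a median. The day 1 mitosis point rests on 4 genes, 2 higher and 1 lower, and lay between 0.44 and 2.58 over the alternative settings.

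Outside the division lists, the 6 genes with the largest ratios in each direction often rested on single cells. In steady state Fignl2 had 32 UMIs in 1 member, Snrnp27 30 of 39 and Caprin1 20 of 22 in 1 member each, and on day 1 Gpkow had 34 of 35. On day 5 Psmf1 had 29 of 31 and Tm7sf3 30 of 31 in 1 member each. Genes spread over more cells were Cks1brt, 50 UMIs in 27 day 5 members against 10 in 8 matched cells, and Dnajc9, a histone chaperone, 33 UMIs in 18 members against 12 in 9. Cks1brt is in none of the lists, but Cks1b, a gene of similar name, is in the mitosis list. Over the alternative settings the day 5 log2 ratio of Cks1brt lay between 3.61 and 5.13 and that of Cks1b between 3.40 and 4.64. Genes lower in many cells were Ninj1, a membrane protein of adhesion and cell rupture, with 3 UMIs in steady-state members against 144 in 25 of 48 matched cells, and on day 5 Clec4d, a C-type lectin, with 3 UMIs against 81 in 29 of 177. Hif1a, the hypoxia transcription factor, had 5 UMIs in 5 day 5 members and 97 in 32 matched cells, 6.51-fold lower (2.70 to 20.5), and 7 against 20 UMIs on day 1, a ratio of 1.05 (0.374 to 2.58).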

How the data were processed

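Single-cell RNA of sciatic nerve macrophages was measured in 3 droplet libraries (10x Genomics chemistry version 1, per the labels' descriptions). The authors deposited raw UMI counts per gene and cell barcode, 27998 genes, made with Cell Ranger 2.0.2 on mm10 per the submitters' processing notes. How cells were sorted, the animals per library and any removal of doublets or free RNA were not given in the sources used. The pooled table and the bulk data of the series were not used here.

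Cells with at least 200 genes and at most 10% mitochondrial UMIs were kept, which removed 3, 3 and 0 barcodes. Libraries shared 2, 3 and 11 barcodes, none of a member. Scrublet in scanpy 1.11.5 called 18 of 5580 cells (0.323%), too few to be relied on. None was a member, none was left out, and doublets remain possible. The median UMIs per cell were 2238.5, 2555 and 2473.

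Matching took 3 cells per member, without reuse. A gene was compared with at least 100 CPM in either class, a 2-fold ratio counting as higher or lower, with 0 set to 3 UMIs over the class. The named genes were the 6 largest ratios in each direction per library, up to 4 per list, and the identity genes of the rule. Further list members were chosen after their values were seen. The members and all 29 lists were chosen with earlier results of these data known. Code was tested on simulated data (Python 3.11.15).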

Additional observations from a re-analysis of the deposited data

Results flagged for a closer look

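Between members and matched cells 4 genes differed at least 2-fold in opposite directions in different libraries. The differences between libraries were not tested. Ccr2, a chemokine receptor, had a log2 ratio of 1.51 in steady state, where 1 cell held 23 of 39 UMIs, and −1.09 on day 1. Ms4a4c, a membrane protein of the MS4A family, had 2.19 in steady state, with 11 of 16 UMIs in 1 cell, −1.39 on day 1 and −2.19 on day 5. Spp1, osteopontin, had 2.73 in steady state, from 7 UMIs in 2 cells against 0, and −3.52 on day 1. Zeb2, a transcription factor of macrophage identity, had 1.32 on day 1 and −1.07 on day 5, with 25 UMIs in 8 members and 36 UMIs in 17 members. Over the alternative settings Zeb2 lay between 0.86 and 2.26 on day 1 and between −1.40 and −0.55 on day 5, and Ccr2 on day 1 between −1.69 and −0.82, so neither call held under every setting.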

How the results depend on the processing

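No paired analysis was possible because each condition was 1 library, and there was no replicate to leave out. Counts of genes at least 2-fold higher in steady state, day 1 and day 5 were 289, 192 and 103 with median-of-ratios scaling, 1195, 669 and 395 with a minimum of 50 CPM, and 196, 107 and 48 with 200 CPM. With 5 or more UMIs of the 13 genes they were 697 on day 1 and 243 on day 5. Counts of lower genes were 446, 374 and 101 with 1 nearest cell per member, 494, 458 and 160 with 50 CPM, and 108, 85 and 20 with 200 CPM. On day 5 they were also 103 with 5 or more UMIs, 30 against all unmatched cells and 97 with median-of-ratios scaling. The share of members was 0.940%, 0.240% and 1.41% after thinning to 1000 UMIs, 1.25% and 4.47% on day 1 and day 5 at 2 or more UMIs, and 0.251% and 2.04% at 5 or more.

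The median log2 ratio of monocyte and granule genes in steady state turned from −1.0 to 0.16 against unmatched cells. Ccl17 in steady state, held by 1 cell in each class, turned from −1.22 to 3.50 with 1 nearest cell, 1.93 against unmatched cells and 6.38 against cells without replication UMIs. It was 5.09 with only cells of 3 or more C1q UMIs. At 5 or more UMIs Ccl12 on day 1 was −0.14 and Psmf1 on day 5 −1.89. Gpkow on day 1 was 0.00 without the deepest member. The limits to C1q-positive cells and without the deepest member were chosen after seeing the data. Of the log2 ratios of named genes over all alternatives 2209 stayed within their counting interval, 260 moved out of it and 7 reversed. The causes were not tested. With 16 and 17 members, a gene under 100 CPM rests on 6 UMIs or fewer in steady state and day 1.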
